A study of Homo sapiens with 8 samples.

Results

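Microexons are exons so short that a single sequencing read crosses both of their splice junctions. The annotated microexons described here are gaps of 3 to 27 nt between 2 junctions of the same strand, both marked as annotated in the junction tables, whose outer sites are also joined by a junction that skips the gap. They were chosen by their read totals over all 8 libraries, at least 10 inclusion reads and at least 10 skipping reads, and not by a difference between the groups. The rule found 355 microexons in 333 genes, of 45044 cassette exons of 3 to 500 nt in the same tables. Of 739 candidates at any read number, 384 were left out by the read minimum. The scarcer of the 2 read classes held 10 to under 12 reads in 20 microexons just inside the minimum, and 8 to under 10 reads in 28 candidates just outside it. Inclusion, in percent, is the average read number of the pair of inclusion junctions as a share of itself and the skipping reads together.

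All libraries came from HEK293, a standard cell line derived from human embryonic kidney. The 4 control libraries (replicates 9 to 12) were from cells given dimethyl sulfoxide (DMSO), a solvent, and the 4 treated libraries (replicates 13 to 16) from cells given 25 nM LMI070 (branaplam), a small molecule that alters splicing of pre-mRNA. Nothing else in the labels separates the groups, and they state neither the length of the treatment nor whether the libraries stem from separate cultures. P-values therefore measure the spread between these libraries, which may be technical. Lane 7 held DMSO replicates 11 and 12 and LMI070 replicates 13 and 16, and lane 8 held the other 4 libraries. The lanes carry different run codes, so lane and run cannot be told apart. Uniquely mapped junction reads ran from 20369466 (LMI070 replicate 15) to 36131054 (LMI070 replicate 13) per library. The labelled cell line was checked on its own markers: all 7 HEK293 genes of a list (PAX2, LHX1, VIM, NEFL, NEFM, INA and GAL) had enough spliced reads to be tested, whereas 4 listed blood genes together had at most 10 reads in a library. Genes of other listed cell types were also read: 4 of 6 skeletal muscle genes and 2 of 5 fibroblast genes had enough reads to be tested, with 278 to 384 and 450 to 675 summed reads in DMSO libraries, and PAX2 had 57 reads over all DMSO libraries. The lists therefore do not set the cell type apart on their own. A list of 10 neuronal genes summed to 323 to 381 reads in DMSO libraries and 287 to 592 in LMI070 libraries.

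Most microexons that have been described are neuronal or muscular. The splicing factors SRRM4 and SRRM3 promote their inclusion in neurons, and PTBP1, a protein abundant in dividing cells, represses many of them. A short exon offers little room for the proteins that define exons, so it depends on strong splice sites and on elements in the flanking introns. Many microexons keep the reading frame and add a few residues at the surface of a protein. LMI070 acts at the 5′ splice site, where the U1 snRNP pairs with the end of the exon and the start of the intron, and the exons it promotes are known for a particular exon end, GA.

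The sequences that matter most are those of the microexons which passed the treatment test and of the others with the same last 3 bases. They are written 5′ to 3′ from GENCODE 29 transcripts on GRCh38, in lower case with the final AGA in capitals. The first is VPS29 (chr12:110499535-110499546, minus strand, coding), followed by the ERGIC3 exon (chr20:35554372-35554386, plus strand, coding).
VPS29: gctgggcacAGA
ERGIC3: tacatgctgtggAGA
The remaining printed microexons with this end are coding exons of EXOC6B (chr2:72182894-72182905, minus strand), CLASP2 (chr3:33563964-33563966, minus strand), NUP58 (chr13:25319326-25319350, plus strand), RCHY1 (chr4:75491611-75491637, minus strand) and SGCE (chr7:94599697-94599723, minus strand).
EXOC6B: gatatctagAGA
CLASP2: AGA
NUP58: gtgataaaacgggaacaagaccAGA
RCHY1: aacgtgttatgaagaaatgttgaaAGA
SGCE: ggaaaagagaaacatgcaaacaccAGA
Transcripts that run on into the next intron gave its first bases for 2 of these: gtaagt after VPS29 and gtgagt after RCHY1. For contrast, 5 other short microexons described below end otherwise. They lie in RPS24 (chr10:78037439-78037441, plus strand), AP2M1 (chr3:184180645-184180650, plus strand), MAP4K4 (chr2:101868029-101868037, plus strand), KIF3A (chr5:132706451-132706459, minus strand) and SPTAN1 (chr9:128609651-128609665, plus strand).
RPS24: aag
AP2M1: catcag
MAP4K4: ggcgaagtg
KIF3A: atcaagcag
SPTAN1: ctttccaagctgctg

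The first question was what kind of exons these are in HEK293. Of the 355, 282 lay in coding sequence, 9 partly so, 25 in untranslated regions and 25 in noncoding transcripts. The other 14 were gaps between annotated junctions that are not an exon of any GENCODE 29 transcript. Lengths rose in number toward the upper limit, with 57 microexons of 27 nt and 48 of 24 nt, against 10 each of 3 and 6 nt. A length that is a multiple of 3, which keeps the reading frame, was held by 246 (69.3%). Among the 21406 annotated cassette exons of 28 to 500 nt the share was 41.8%. Within coding exons the shares were 77.7% of 282 microexons and 47.1% of 13549 longer exons. These shares are descriptions of the annotation and the expressed genes, and no test was made.

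Because a read that includes a microexon crosses both of its junctions, both junctions should hold like numbers of reads. The median ratio of the less-read to the more-read inclusion junction was 83.8%. In 255 microexons the ratio was 0.5 or more (called balanced below), and in 100 it was lower. Of the 100 uneven ones, 76 shared a splice site with another cassette exon of the tables and 12 were not an exon of any transcript, against 87 and 2 of the 255 balanced ones. Multiples of 3 made up 77.3% of the balanced and 49% of the uneven microexons. EIF4A1, which encodes an RNA helicase of translation initiation, is a deeply read example. Its 18-nt gap had 91 reads on the left and 28540 on the right junction in DMSO, so its inclusion of 98.6% ± 0.141 (SD, n = 4) is set almost wholly by the right junction. The 3-nt gap in RTRAF, a gene of a tRNA ligase complex, was alike in this, with 29 and 3441 reads. RPL41, a gene for a ribosomal protein, lay just under the limit for its 23-nt exon, with 6951 and 15066 reads. Inclusion is therefore read with this ratio in view, and the counts of microexons that passed the treatment test below were the same among the 232 balanced microexons tested.

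**Figure D1:**
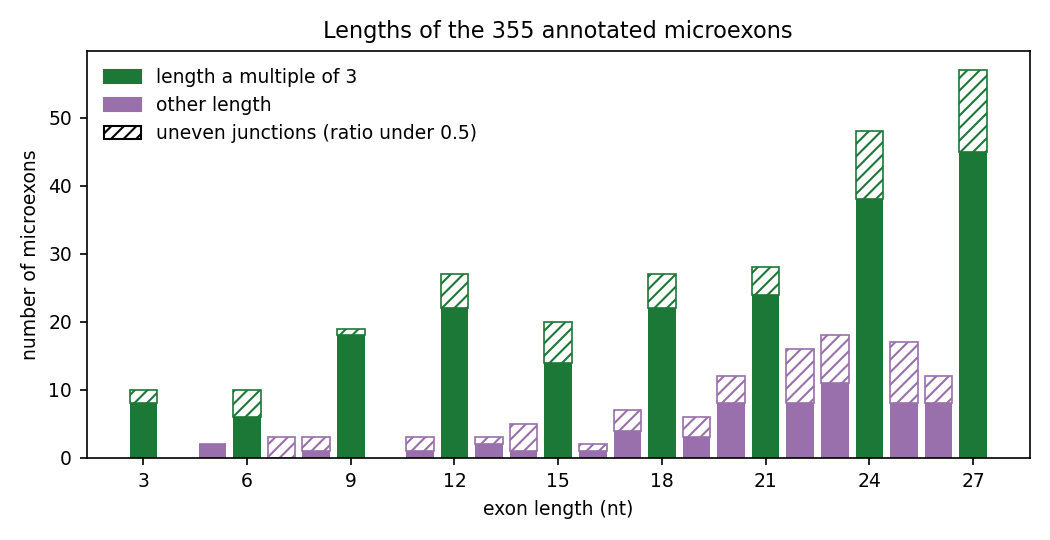
Number of annotated microexons (y axis) at each exon length in nt (x axis), coloured by whether the length is a multiple of 3; hatched parts are exons whose less-read inclusion junction has under 0.5 of the other's reads. The tallest bars are multiples of 3, with 57 at 27 nt and 48 at 24 nt.

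Of the 355, 315 microexons in 298 genes had at least 10 reads in every library and were tested; 40 were too thinly read in at least 1 library. Microexons were often skipped in HEK293. The median inclusion over DMSO libraries was 53.2%, with 82 microexons under 10%, 134 between 10 and 90% and 99 over 90%. In the 19453 tested annotated exons of 28 to 500 nt the median was 94% and 58.7% of exons were over 90%, against 31.4% of microexons. Among the 232 balanced tested microexons the median was 53.4%, close to that over all. Length went with inclusion within them: the median was 36.6% for the 32 of 3 to 9 nt, 35.8% for the 64 of 10 to 18 nt and 69.5% for the 136 of 19 to 27 nt. Frame went with it too, since 50 of 57 balanced microexons under 10% and 90 of 105 between 10 and 90% were multiples of 3, against 41 of 70 over 90%. Required skipping reads bound these values from above, because an exon that is never skipped does not enter the tables' cassette set.

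**Figure D2:**
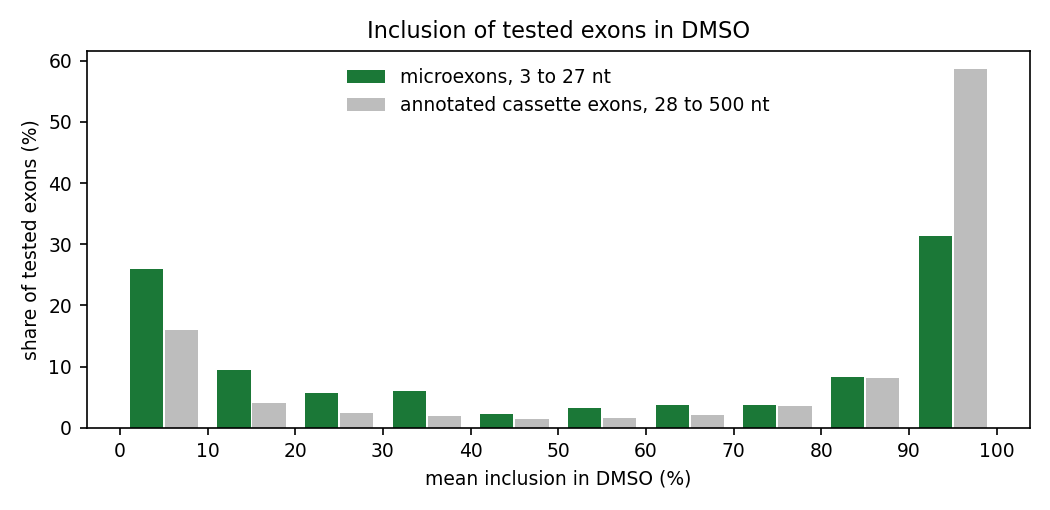
Share of tested exons in percent (y axis) in each 10-point class of mean inclusion in DMSO (x axis, percent) for 315 microexons and 19453 annotated cassette exons of 28 to 500 nt. Of the longer exons 58.7% lie over 90%, against 31.4% of the microexons, which fill the middle classes more.

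The most deeply read members show the range of levels. Near the bottom, the 18-nt exon of RPS24, a small ribosomal subunit gene, had an inclusion of 0.236% ± 0.0861 (DMSO) and 0.152% ± 0.0442 (LMI070; SD, n = 4 each). The 3-nt exon of the same gene was at 2.79, 2.86, 2.37 and 2.74% in DMSO replicates 9 to 12 and at 2.61, 2.51, 2.39 and 2.24% in LMI070 replicates 13 to 16. A further RPS24 microexon of 22 nt, in the untranslated region, was at 28.4% ± 0.539 and 28.6% ± 0.824. The 3 RPS24 microexons do not share a site with each other. The reads that skip the 3-nt and the 18-nt exon are the same 7148 in DMSO and 7574 in LMI070. That same junction is 1 of the inclusion junctions of the 22-nt exon. The percentages of the 3-nt and 18-nt exons therefore leave out the reads that skip the 22-nt exon, 16351 in DMSO and 17184 in LMI070.

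SSRP1, a subunit gene of the histone chaperone FACT, held a 9-nt exon at 0.364% ± 0.128 in DMSO and 0.255% ± 0.0447 in LMI070. In the middle range, AP2M1, which encodes the cargo-binding subunit of the clathrin adaptor AP-2, included its 6-nt exon at 75.3, 73.5, 73.5 and 73% in DMSO and 74.8, 75.7, 76.2 and 73.9% in LMI070. The groups overlapped. The 26-nt exon of HNRNPC, an RNA-binding protein gene, lies in the untranslated region and was at 82.2% ± 1.24 and 83.6% ± 1.07 (edgeR, unadjusted p = 0.0051, adjusted p = 0.581). At the top, the 6-nt exon of PHB2, a gene for a mitochondrial scaffold protein, was at 99.8% in both groups, with SDs of 0.0226 in DMSO and 0.0351 in LMI070 and 10 skipping reads in each group. At the other end of the shortest class, VDAC3, a mitochondrial channel gene, included 3 nt at 1.16% ± 0.413 and 1.1% ± 0.569. The 6-nt exon of DCTN2, a dynactin subunit gene, was at 8.81% ± 2.29 in DMSO and 10.9% ± 1.03 in LMI070 (adjusted p = 1).

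The comparison of LMI070 with DMSO asked which microexons respond to the drug. Inclusion rose in 3 of the 315 tested microexons and fell in none at an adjusted p under 0.05 (quasi-likelihood F test of edgeR on paired inclusion and skipping counts, with lane in the model, adjusted over all 39258 cassette exons tested). The 3 were exons of VPS29, ASAP1 and ERGIC3. With a minimum change of 10 percentage points, 2 were called higher, VPS29 and ASAP1, and 0 lower. Over all cassette exons tested, 0.143% were called higher and 0.00509% lower by that rule, and 0.293% and 0.0204% without the minimum change. The microexons' shares were 0.635% and 0.952% for higher inclusion. Both shares count ASAP1, which met the inclusion minimum only through LMI070 (1 read in DMSO, 49 in LMI070) and so had to differ. No excess of microexons is read from them. At an unadjusted p under 0.05, 12 microexons were higher and 3 lower, together 4.76% of those tested, beside 5.05% of all cassette exons (1050 higher and 934 lower). DESeq2 also found 0 lower. The median difference over the 315 was 0.017 points, beside 0.0025 points over all cassette exons, and 280 microexons (88.9%) had group means within 5 points of each other, beside 93% of all cassette exons. These are bulk libraries, in which a shift in every cell and a shift in some cells, or a change in the number or stability of RNA copies of each form, cannot be told apart.

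**Figure D3:**
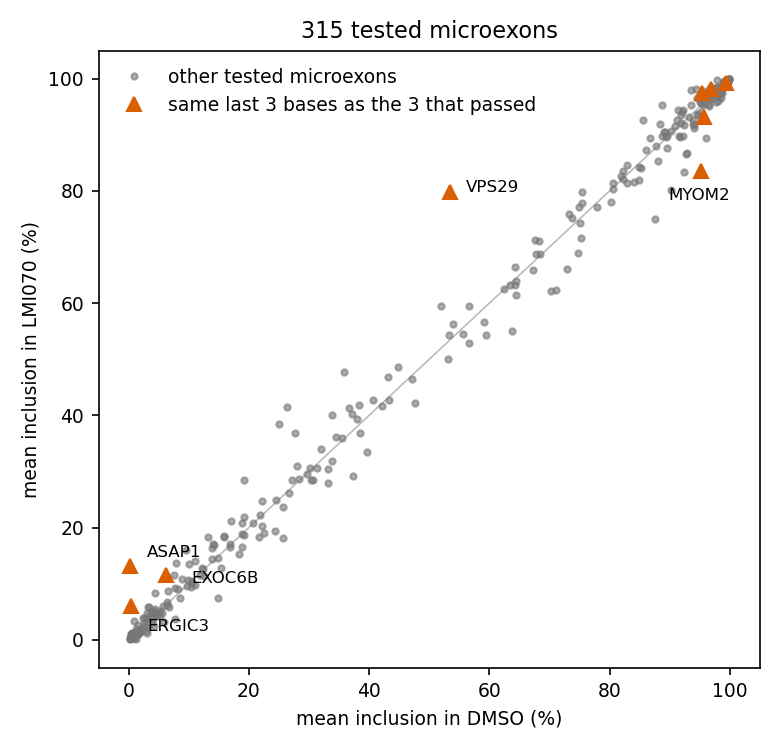
Mean inclusion in LMI070 (y axis, percent) against mean inclusion in DMSO (x axis, percent) for the 315 tested microexons; triangles are the 9 whose last 3 bases are those of the 3 that passed the test, and the grey line marks equal inclusion. VPS29 lies 26.4 points above the line and ASAP1 13 points, while most microexons lie near it.

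VPS29 encodes a subunit of retromer, the complex that returns membrane proteins from endosomes. Its 12-nt exon was included at 55, 45.7, 54.8 and 58.1% in DMSO replicates 9 to 12 and at 78.7, 78.6, 77.5 and 84.4% in LMI070 replicates 13 to 16. Every LMI070 library lay above every DMSO library, and the lowest DMSO value was replicate 10. The mean went from 53.4% ± 5.34 to 79.8% ± 3.13 (SD, n = 4 per group), a rise of 26.4 points (adjusted p = 1.48e-09). In lanes 7 and 8 taken alone the rise was 25.1 and 27.7 points. The reads behind it were 478 including and 424 skipping in DMSO, and 682 and 174 in LMI070, so that the pooled shares were 53% (95% exact Clopper-Pearson interval 49.7 to 56.3%) and 79.7% (76.8 to 82.3%). Intervals cover counting error only, since the reads carry no molecular identifiers. A 90-nt annotated exon (chr12:110499457-110499546) shares the upstream splice site and the skipping junction of the 12-nt exon. It went from 40.2% ± 3.95 to 70.5% ± 3.79 (adjusted p = 1.98e-09), but its own downstream junction held 138 reads against 1242 at the shared upstream junction, so its value mostly repeats the reads of the microexon, whose downstream junction held 1077. Of 9 VPS29 cassette exons tested 3 passed, the third being an unannotated gap of 79 nt with 2 reads at its own upstream junction.

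ASAP1 encodes a GTPase-activating protein for Arf proteins, and its 9-nt exon (chr8:130160785-130160793, minus strand, coding) is in the list of genes with described microexons. It was nearly absent without the drug. DMSO replicates 9, 11 and 12 had 0 including reads, which allows inclusion of up to 4.29, 3.85 and 3.8% (3 counts over the skipping reads of each library, counting error only), and replicate 10 had 1, a value of 0.943%. In LMI070 the 4 libraries were at 13.5, 10.8, 9.59 and 19%, all above DMSO. The mean in LMI070 was 13.2% ± 4.2, against 0.236% ± 0.472 in DMSO, a rise of 13 points (adjusted p = 8.37e-06). Both lane 7 libraries were higher than both lane 8 libraries in LMI070, and the rise was 16.3 points in lane 7 and 9.71 points in lane 8. With lane 8 alone the adjusted p was 0.0689. Pooled counts were 1 including and 332 skipping reads in DMSO, and 49 and 315 in LMI070. This exon met the minimum of 10 inclusion reads only through the LMI070 libraries, and an exon that enters in this way had to differ.

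ERGIC3 encodes a membrane protein that cycles between the endoplasmic reticulum and the Golgi apparatus. Its 15-nt exon was included at 0.233, 0.4, 0.554 and 0.113% in DMSO replicates 9 to 12 and at 5.67, 5.42, 6.52 and 6.3% in LMI070 replicates 13 to 16. The groups were far apart relative to their spread, at 0.325% ± 0.193 and 5.98% ± 0.519 (SD, n = 4 per group), and the rise of 5.65 points had an adjusted p of 7.72e-13. It was 5.65 points in lane 7 and 5.66 in lane 8. This exon was the most deeply read of the 3, with 13 including and 3817 skipping reads in DMSO and 231 and 3683 in LMI070. The pooled shares were 0.339% (95% exact interval 0.181 to 0.58%) and 5.9% (5.18 to 6.69%). In LMI070 most ERGIC3 RNA that could include the exon still skipped it. Of 10 ERGIC3 cassette exons tested, a second one, of 45 nt, went from 0.125% ± 0.0916 to 0.721% ± 0.243 (adjusted p = 0.0432). It is measured against the same skipping reads. Its inclusion junctions held 34 and 31 reads over all libraries, beside 7500 skipping reads. At 0.125% in DMSO, this 45-nt exon met the inclusion minimum only through LMI070, which favours a rise. Its p-value supports nothing.

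Spliced reads of the 3 host genes did not pass the test across genes. Log2 fold changes of LMI070 over DMSO were -0.06 for VPS29 (SE 0.06, adjusted p = 0.761), 0.09 for ASAP1 (SE 0.09, adjusted p = 0.758) and -0.02 for ERGIC3 (SE 0.04, adjusted p = 0.888), by the same kind of edgeR test on gene sums. Among 13649 genes tested, 0.139% were called in either direction.

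All 3 microexons that passed end in AGA, a feature that did not enter the rule and that was looked at after their values were seen. Of the 315 tested microexons 9 (2.86%) ended in these letters, searched on the transcript strand at the last 3 bases of the exon, and no tested microexon ended in GA after another base. The share was 0.817% among 18735 annotated tested exons of 28 to 500 nt with a sequence. Of the 9 microexons, 3 rose and 6 did not pass. Among these 9, ASAP1, MYOM2 and SGCE met the minimum in the scarcer read class through 1 group alone, which favours a difference. The count of 3 and the median given below draw on them. None of the 306 others passed, and their smallest adjusted p was 0.316. Among the longer exons 16 of the 153 that end in AGA rose and 1 fell, and 11 of the 18582 with another end rose. The same read minimum applied to the longer exons, and how many met it through 1 group alone was not counted. Such an entry favours a difference, so no support for this exon end is drawn from these counts. The median difference was 1.98 points over the 9 microexons and 0.00262 points over the 306. No test of these shares was made; they are a description.

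**Figure D4:**
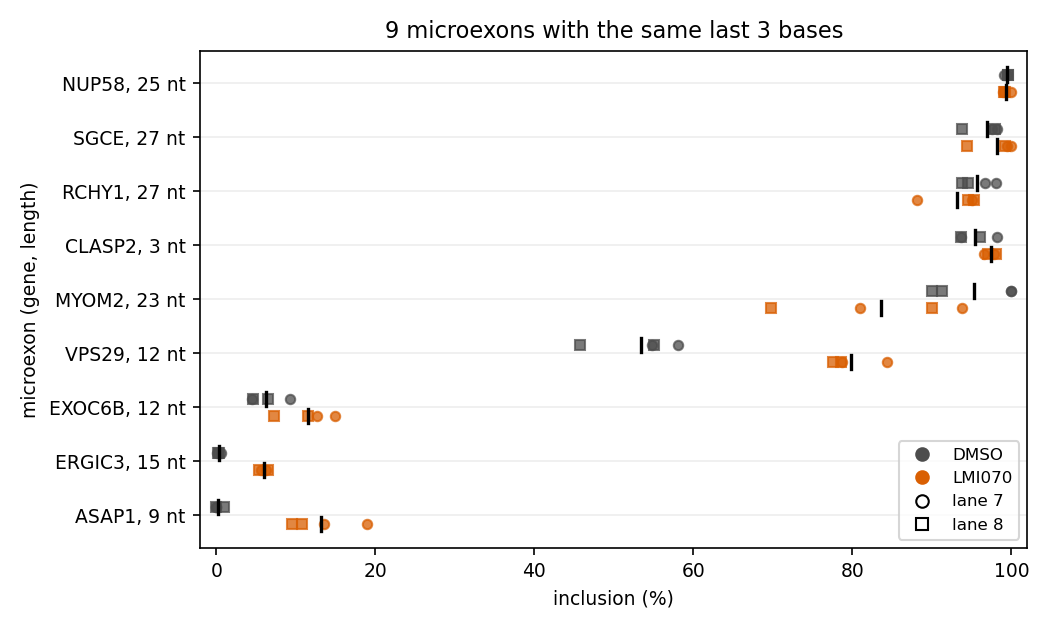
Inclusion in percent (x axis) in each library for the 9 tested microexons with the same last 3 bases (y axis); circles are lane 7, squares lane 8, grey DMSO, orange LMI070, and short black lines group means (n = 4). VPS29, ASAP1 and ERGIC3 have groups that do not overlap, while NUP58, SGCE, RCHY1 and CLASP2 lie over 88% in every library.

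Of the 6 with this end that did not pass, 5 stood over 90% in DMSO. The sixth, EXOC6B, a gene of the exocyst complex that tethers secretory vesicles, was at 4.62, 6.56, 9.26 and 4.44% in DMSO and 14.9, 7.22, 11.6 and 12.7% in LMI070. One LMI070 library, replicate 14, fell within the DMSO range. The mean went from 6.22% ± 2.24 to 11.6% ± 3.23, on 14 including reads in DMSO and 30 in LMI070 (unadjusted p = 0.0295, adjusted p = 0.963). CLASP2, which encodes a protein of growing microtubule ends, included its 3-nt exon at 95.4% ± 2.18 in DMSO and 97.4% ± 0.659 in LMI070 (adjusted p = 1). NUP58, a nuclear pore gene, stood at 99.4% ± 0.199 and 99.3% ± 0.491, and SGCE, the gene of epsilon-sarcoglycan, at 96.9% ± 2.11 and 98.2% ± 2.62. SGCE met the minimum of 10 skipping reads only through DMSO (15 reads, and 7 in LMI070), which favours a higher mean in LMI070. RCHY1, a ubiquitin ligase gene, was at 95.7% ± 1.95 and 93.2% ± 3.43. The 23-nt exon of MYOM2, a gene for a protein of the muscle M-band, had a lower mean in LMI070, 83.6% ± 10.7 against 95.3% ± 5.42, on 2 skipping reads in DMSO and 11 in LMI070 (unadjusted p = 0.0275, adjusted p = 0.961). It met the minimum of 10 skipping reads only through LMI070, so its lower inclusion there follows in part from how it entered.

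Other microexons had differences at an unadjusted p under 0.05 that did not pass after adjustment. Several of them, like ASAP1 and MYOM2, met the minimum of 10 reads in the scarcer class through 1 group alone, which favours a difference in that direction: MTA1 for inclusion (4.5 reads in DMSO, 17 in LMI070), FAM120A for inclusion (10.5 and 1.5), MAPK8IP3 for skipping (10 and 3) and TMEM237 for skipping (12 and 1). Their p-values support nothing. KIF3A encodes a motor subunit of kinesin-2, and its 9-nt exon was at 55.9, 55.1, 49.3 and 47.1% in DMSO and 55.1, 61.2, 63.7 and 58% in LMI070. The group means were 51.9% ± 4.34 and 59.5% ± 3.75, 7.64 points apart, and only 1 LMI070 library lay within the DMSO range (unadjusted p = 0.00602, adjusted p = 0.614). CACNB4, a calcium channel subunit gene, had a larger difference of 13.5 points for a 20-nt exon, from 25% ± 14.4 to 38.5% ± 6.68, with DMSO libraries spread from 11.8 to 45.5%. MAPK8IP3, which encodes a scaffold for kinesin and JNK, was at 94.4% ± 2.61 and 98.2% ± 2.45 for a 12-nt exon. The 18-nt exon of DST, a cytoskeletal linker gene, was at 95.5% ± 0.703 and 97.9% ± 1.33, and the 12-nt exon of MTA1, a gene of a chromatin remodelling complex, at 0.843% ± 0.847 and 3.39% ± 2.18. For MTA1, LMI070 replicate 16 was the highest at 6.55% and replicate 14 the lowest at 1.55%, the latter within the DMSO range.

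Lower means were fewer. FAM120A, an RNA-binding scaffold gene, held a 21-nt microexon of a noncoding transcript that was at 1.05, 1.49, 0.985 and 1.57% in DMSO. In LMI070 replicates 13, 14 and 16 had 0 including reads, which allows up to 0.923, 1.45 and 1.37%, and replicate 15 was at 0.826% (unadjusted p = 0.0117, adjusted p = 0.78). NTAN1, which encodes an amidase of the N-degron pathway, went from 87.6% ± 3.84 to 75% ± 8.28 for a 22-nt gap (unadjusted p = 0.0115, adjusted p = 0.78). Its 2 junctions held 2 and 193 reads in DMSO, so the value is set by 1 of them. The smallest unadjusted p outside the 3 that passed was that of the 5-nt exon of TMEM237, a gene of the ciliary transition zone, named here after its value was seen. It was at 97.9% ± 0.746 in DMSO and 99.8% ± 0.4 in LMI070, on 12 and 1 skipping reads (unadjusted p = 0.00175, adjusted p = 0.316).

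Genes known for microexons in neurons or muscle were followed from a list of 49, of which 21 held 25 microexons in these libraries, all with lengths that are multiples of 3. Of the 23 tested, 1 (ASAP1) rose and 0 fell. At the same call without a minimum change 0.293% of all cassette exons were higher. The list was chosen with earlier results of these data known, and ASAP1 met the inclusion minimum only through LMI070. The count of 1 is therefore no support for a response of the list. The list's median difference was -0.363 points, beside 0.0025 over all cassette exons. Their inclusion was low in HEK293: 13 were under 10% in DMSO, 8 between 10 and 90% and 2 over 90%, with a median of 6.42%, while the 292 other tested microexons had a median of 59.5%.

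AP1S2, a clathrin adaptor subunit gene, was nearly always skipped for its 9-nt exon, at 0.191% ± 0.257 in DMSO and 0.351% ± 0.174 in LMI070, and CTNND1, the gene of p120 catenin, was at 1.27% ± 0.812 and 1.85% ± 0.943 for 18 nt. PTK2, the focal adhesion kinase gene, held 2 such exons, of 9 nt at 4.15% ± 0.673 and 5.06% ± 1.24 and of 18 nt at 1.09% ± 0.588 and 1.33% ± 0.747. The CTNND1 exon (9 inclusion reads in DMSO, 14.5 in LMI070) and the 18-nt PTK2 exon (7.5 and 11) met the inclusion minimum only through LMI070. This favours a higher mean there. Intermediate levels were found for the 9-nt exon of the kinase gene MAP4K4, at 26.7, 29.4, 25.9 and 24.7% in DMSO and 24.2, 26.4, 28.7 and 25.3% in LMI070, and the groups overlapped. The 27-nt exon of ROBO1, a receptor for axon guidance cues, was at 67.2% ± 6.85 and 65.9% ± 1.81. SPTAN1, which encodes a spectrin of the membrane skeleton, carried opposite levels in 1 gene. Its 15-nt exon was at 11% ± 2.52 in DMSO and 9.69% ± 1.38 in LMI070, and its 18-nt exon at 94.5% ± 1.9 and 93.8% ± 1.58. These 2 exons do not share a splice site. None of these members passed the treatment test, and for MAP4K4 the log2 odds ratio of inclusion was -0.06 (SE 0.13).

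**Figure D5:**
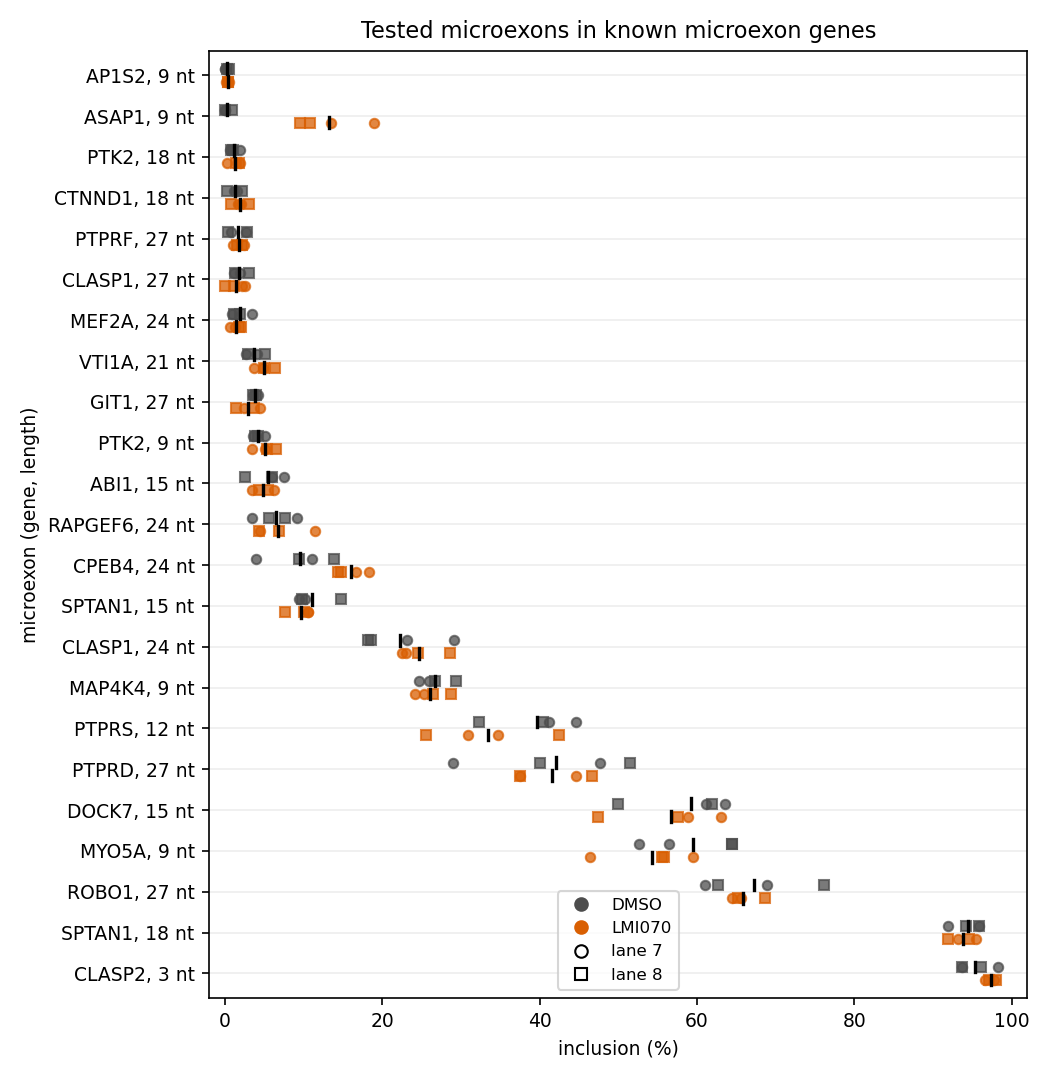
Inclusion in percent (x axis) in each library for the 23 tested microexons in genes with described neuronal or muscle microexons (y axis); circles are lane 7, squares lane 8, grey DMSO, orange LMI070, short black lines group means (n = 4). ASAP1 is the 1 that passed the test; 13 of the 23 have a mean under 10% in DMSO.

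The proteins that act on microexons were measured as spliced reads per gene. Of 32 listed regulators 23 could be tested, and 0 were called by edgeR or by DESeq2 at an adjusted p under 0.05; over all genes 0.139% were. At an unadjusted p under 0.05 there were 3, PTBP1, ELAVL1 and KHDRBS1, with log2 fold changes of 0.10, 0.12 and 0.15, which is 13% of the 23 beside 9.7% of all genes tested. Their adjusted p-values were 0.39, 0.442 and 0.363. The activators of neuronal microexons had few reads or none: SRRM4 had 0 spliced reads in all 8 libraries and SRRM3 had 25 in DMSO and 42 in LMI070. RBFOX1 and KHDRBS2 also had 0 reads. The level of the repressor PTBP1 was 464 CPM ± 27.5 in DMSO and 497 CPM ± 2.52 in LMI070 (SD, n = 4 per group), where CPM are spliced reads relative to the library total after TMM scaling. Among other regulators QKI had a log2 fold change of 0.08 (SE 0.05), RBFOX2 of 0.03 (SE 0.04) and SRSF11 of 0.05 (SE 0.05). U2AF1 had 10 and 20 uniquely mapped reads and has a near-identical copy, so its level is uncertain.

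Lanes were compared in the same fit as the treatment. None of the 315 microexons differed between lanes at an adjusted p under 0.05 (edgeR), and 0.00255% of all cassette exons did. At an unadjusted p under 0.05, 15 microexons differed between lanes (4.76%), beside 4.47% of all cassette exons. The median absolute difference between lanes was 1.106 points, beside 1.036 points between treatments. For regulators the treatment comparison gave different counts in each lane taken alone, and the difference between the lanes was not tested. With lane 7 alone 3 regulators were called higher, SRRM2, SF1 and KHDRBS1, with log2 fold changes of 0.63, 0.47 and 0.29, while in lane 8 the values were -0.02, -0.06 and 0.01. With lane 7 alone 577 genes were called, and with lane 8 alone 50. The part of this lane difference in the larger ASAP1 rise of lane 7 was not tested.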

How the data were processed

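RNA of 8 HEK293 libraries, 4 with DMSO and 4 with LMI070, was depleted of ribosomal RNA and prepared with a stranded kit, per the labels' protocols. The aligner was STAR 2.6.0c and the genome build GRCh38, per the submitters' processing notes. The deposited tables hold raw counts of uniquely and of multiply mapped reads across each junction, without normalization by the authors; aligner settings are not given in the sources used here. Uniquely mapped counts were used. For each exon the skipping junction and flanks with the most inclusion reads were taken. Column 6 and GENCODE 29 gave the same answer for 99.8% of 654181 junctions.

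The mean of both inclusion junctions, rounded to whole reads, and the skipping reads were fitted with edgeR 4.0.16 (R 4.3.3) with terms for library, for inclusion by treatment and for inclusion by lane. Exons needed 10 reads in each library, and Benjamini-Hochberg adjustment covered all 39258 tested. Genes (sums over annotated introns of 1 gene) were scaled by TMM and tested with lane and treatment. The fit was tested on simulated data. DESeq2 1.42.0 and the alternatives of the closing section were run in addition; read totals per library limit the precision.

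Named microexons were those with adjusted p under 0.05; of the rest up to 6 each way with unadjusted p under 0.05 and the same direction in both lanes, by size; the 3 most read in each of 3 inclusion classes; up to 6 of 3 to 6 nt and up to 8 in known microexon genes, by reads. TMEM237 and the AGA-ending exons of CLASP2, NUP58, RCHY1 and SGCE were added after their values were seen. One microexon that this rule names is not reported here. The members and lists were chosen with earlier results of these data known.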

Additional observations from a re-analysis of the deposited data

Results flagged for a closer look

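Of 74 groups of 4 libraries examined over the named microexons, 8 held a library whose gap to its nearest neighbour exceeded Dixon's 95% limit on its share of the range; chance gives about 1 in 20. For ASAP1, DMSO replicate 10 was the only control library with a read (0.943%), and for FAM120A, LMI070 replicate 15 was the only treated one (0.826%). The 9-nt exon of SSRP1 was at 0.322% in LMI070 replicate 13, above 0.231 to 0.236% in the others. The 15-nt exon of SPTAN1 was at 14.8% in DMSO replicate 9 against 9.41 to 10.2%, and at 7.64% in LMI070 replicate 14 against 10.1 to 10.6%. RCHY1 was at 88.1% in LMI070 replicate 16, below 94.5 to 95.3%. SGCE was at 93.8% in DMSO replicate 9 against 97.6 to 98.2%, and at 94.4% in LMI070 replicate 15 against 99.2 to 100%. None of these members other than ASAP1 passed the treatment test.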

How the results depend on the processing

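The number of microexons called higher was 2 and the number higher without a minimum change 3 under all alternatives run except lane 8 alone, where they were 1 and 2. That setting leaves 4 libraries, and ASAP1 was then at 9.71 points with an adjusted p of 0.0689. Leaving out each library in turn gave 2 to 2 and 3 to 3. Microexons called lower and microexons that differ between lanes numbered 0 throughout. Over 20 alternatives the VPS29 rise ran from 23.8 to 28 points and that of ERGIC3 from 5.47 to 5.84, both passing each time, and that of ASAP1 from 9.71 to 16.3 points, passing in 19. Regulators called numbered 0 except with lane 7 alone, where there were 3; the cause was not tested. A limit of 0.5 on the ratio of the inclusion junctions was added after seeing the data and kept both counts. No paired analysis was possible because the replicate numbers of the groups, 9 to 12 and 13 to 16, share none. Depth limits the low end: of 355 microexons, 95 would not reach 10 inclusion and 10 skipping reads in DMSO libraries alone, and of the 236 tested that do, 2 rose.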
